A study of Bos taurus with 16 samples.

Results

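Genes that direct the trophoblast and enzymes that build steroid hormones were examined in CD14+ cells that had been sorted from uterus and from blood of 4 pregnant cows (Bos taurus). They were GATA2, GATA3, TFAP2A, TFAP2C, MSX2 and CDX2 among the transcription factors, and CYP11A1, CYP17A1, CYP19A1 and HSD3B1 among the enzymes. These 10 genes were taken by name from the 20602 gene names of the array, and each was measured by 1 probe spotted 2 times. The question was whether transcripts of the trophoblast program differed between the CD14+ cells of the uterus and those of blood. None of the 10 genes was called different between the tissues. GATA2 had the highest ratio of endometrium over blood, and CDX2 was not well above background in any sample.

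The animals were slaughterhouse cows at days 164, 239, 242 and 248 of pregnancy, called animals 1 to 4 in that order, so animal 1 was at mid pregnancy and the others were late. Endometrial CD14+ cells were sorted from enzymatically dispersed endometrium between the placentomes, and blood CD14+ cells were sorted from mononuclear cells of blood left in the heart. The labels give no breed, age or treatment. Each of 8 arrays with 2 colours held amplified RNA of both tissues of 1 animal. The 2 arrays of an animal were technical replicates, with the dyes swapped between them in 3 animals. In animal 3 the endometrial RNA carried Cy5 on both arrays, so that dye and tissue cannot be told apart within that animal.

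The trophoblast is the outer layer of the conceptus that attaches to the uterus and forms the placenta. GATA and AP-2 factors (the TFAP2 family) turn on genes of trophoblast cells, CDX2 sets the trophoblast lineage apart in the early embryo, and MSX2 is a homeobox factor. The same factors act elsewhere: GATA2 is used by blood progenitors, mast cells, endothelium and uterine stroma, and GATA3 by T cells. Steroid hormones are made from cholesterol in steps. CYP11A1 cuts the side chain to give pregnenolone, HSD3B1 makes progesterone, CYP17A1 leads to androgen precursors and CYP19A1, the aromatase, makes estrogens. The bovine placenta is known to express these enzymes.

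The probe sequences of the genes on which the results turn are given as the scanner files list them, in lower case. The probes of TFAP2A and CDX2 are shown whole, being a detected and an undetected factor. The first 30 bases are shown of the probe with the highest ratio, GATA2, and of the probe with the ratio that stood apart in 1 animal, CYP11A1.
GATA2: gtctgtaaaaactgtatgctctcttcctac
TFAP2A: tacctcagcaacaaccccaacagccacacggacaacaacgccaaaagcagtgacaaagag
CDX2: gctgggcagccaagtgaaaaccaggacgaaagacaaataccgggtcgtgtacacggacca
CYP11A1: tcttgcacctttctggctaggtctgaccag
All 10 probes are 60 bases long, and their GC content ran from 33.3% for GATA2 to 55.0% for CDX2, CYP11A1 and CYP17A1. No run of 20 bases in any of them, on either strand, was found in another of the 21475 probes of the array, so no other probe on the array reads the same stretch. The name of the GATA2 probe rests on the array's transcript name, which calls it similar to human GATA2, while its description reads as unknown.

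Levels below are log2 normalized signals, the mean of the 2 arrays of an animal. They were not compared between genes, because probes differ in brightness. A channel, that is 1 tissue on 1 array, was counted as detecting a gene where the scanner marked its spots as well above background, and each tissue had 8 channels. Ratios are log2 values of endometrium over blood within an animal. An offset of 50 was added to the signals before the log was taken, which draws the ratio of a dim probe toward 0. For this reason the ratio from the authors' own log2 values is given beside it where the scales differ. Fewer transcribing cells and less transcript per cell cannot be told apart in these samples.

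GATA2 was detected in all 8 endometrial channels and in 6 of 8 blood channels. Its endometrial level was 10.21, 7.32, 9.05 and 6.64 in animals 1 to 4, and its blood level was 7.69, 7.04, 6.86 and 6.08. On this scale the difference was wider in animals 1 and 3 than in animals 2 and 4. In the blood of animal 4 neither of the 2 channels was well above background, so that its ratio is drawn toward 0 by the offset. The tissues overlapped, since the endometrium of animal 4 lay below the blood of animals 1, 2 and 3. The ratio was 2.52, 0.28, 2.20 and 0.55, above 0 in 4 of 4 animals, as were those of 10.2% of all probes tested. The mean ratio was 1.39 with a standard error of 0.47 (95% interval 0.22 to 2.56), which is 2.62-fold. By limma the unadjusted p was 0.0277 and the adjusted p 0.283. GATA2 ranked 711 of 16654 probes by ratio and 1628 by p. By the authors' values the ratios were 3.05, 0.44, 3.97 and 2.91, with a mean of 2.59. On that scale animal 4, at 2.91, was close to animal 1, and animal 2 alone was low. The unadjusted p by limma was 0.0930 without animal 1 and 0.104 without animal 3. It was 0.0183 without animal 2 and 0.0311 without animal 4.

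**Figure D1:**
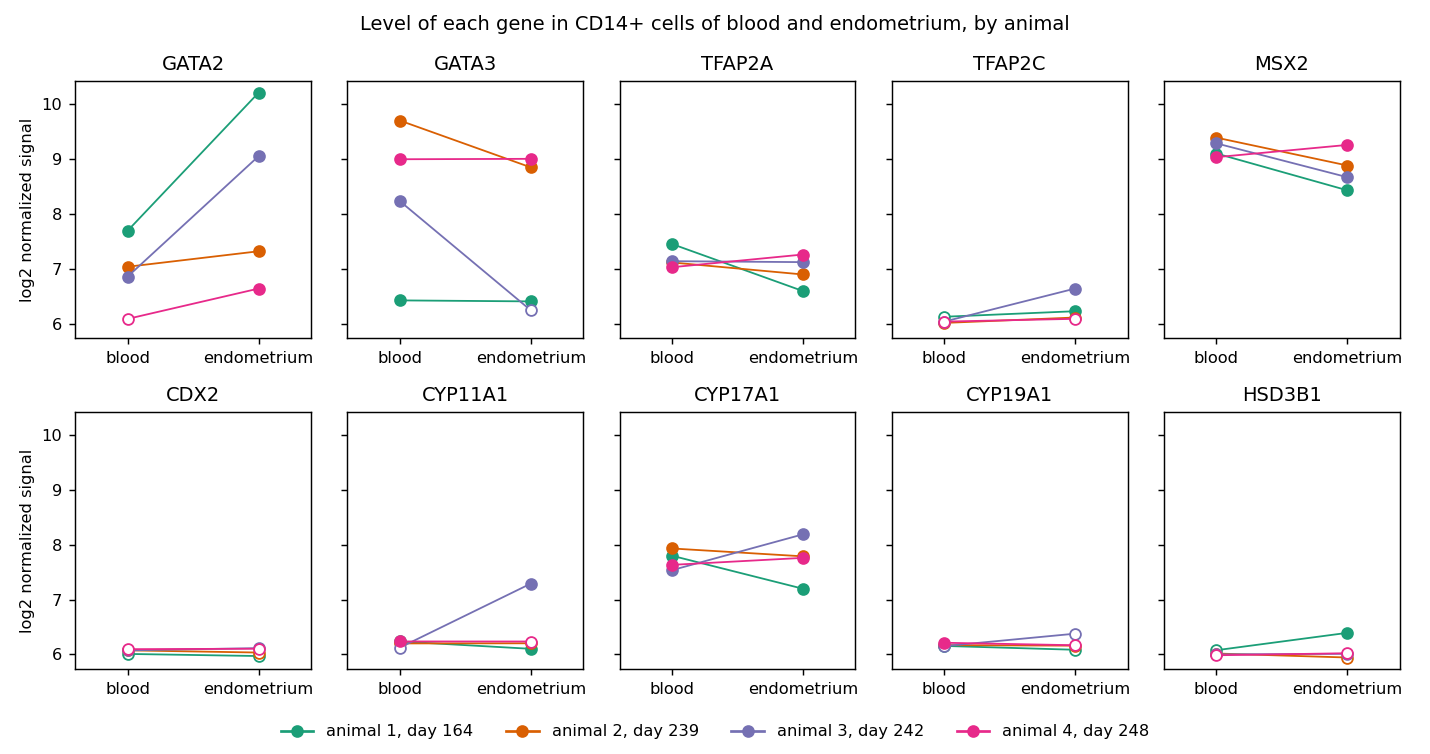
Level of each of the 10 genes as log2 normalized signal (y axis) in blood and endometrium (x axis), with 1 line for each of the 4 animals; filled points were well above background on both arrays, open points on 1 or none. GATA2 lies higher in endometrium in all 4 animals, CYP11A1 does so in animal 3, and CDX2 is open throughout.

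Because both tissues were sorted, markers of other cells were read beside GATA2. The trophoblast list held 10 symbols, but both probes found under PAG1 carry the array's name for a phosphoprotein of membrane microdomains, not for a pregnancy-associated glycoprotein, and after the values were seen PAG1 was set aside. The 9 markers left, which are placental lactogen, prolactin-related proteins and pregnancy-associated glycoproteins, were all higher in endometrium in all 4 animals. Their summed signal was 14721 to 49781 in endometrium and 949 to 1866 in blood, and their median ratio was 3.76, 3.22, 3.87 and 3.46 in animals 1 to 4. With PAG1, which was higher in blood in all 4, the summed signal was 15756 to 49932 in endometrium and 2657 to 7909 in blood, and the median ratio ran from 3.20 to 3.71. Of 12 probes of endometrial epithelium, 11 were higher in endometrium in all 4 animals, with summed signals of 15056 to 122121 in endometrium and 1525 to 3658 in blood, and a median ratio of 2.70, 2.22, 4.00 and 1.83.

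Of 9 stromal markers, 4 were higher in endometrium in all 4 animals, and the summed signal was 739.8 to 77357 in endometrium and 604 to 1802 in blood. The median stromal ratio was 5.18, 0.20, 0.90 and 0.86. Of 8 endothelial markers, 1 was higher in endometrium in all 4 animals and TIE1 was higher in blood in all 4, with summed signals of 775 to 7471 in endometrium and 793 to 1149.9 in blood. The median endothelial ratio was 1.00, -0.26, 1.67 and -0.08. Of 6 mast cell or basophil markers, the receptor KIT was higher in endometrium in all 4 animals and the chemokine receptor CCR3 was higher in blood in all 4. Their median ratio was 0.05, -0.11, 0.32 and -0.07, with summed signals of 637 to 2856 in endometrium and 587 to 1211 in blood. Animals 1 and 3 were the 2 highest for GATA2 and for the median of each of these lists, with animals 3 and 4 nearly equal for stroma. They also had the widest ratios over all probes, with standard deviations of 1.096, 1.002, 1.490 and 0.712 in animals 1 to 4. For natural killer cell markers animal 2 was the highest, with medians of 0.51, 1.16, 0.13 and 0.24. In all these lists every marker was detected in endometrium, and in blood only CDH5, an endothelial cadherin, was in no channel. The part of these cells in the GATA2 signal was not tested.

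**Figure D2:**
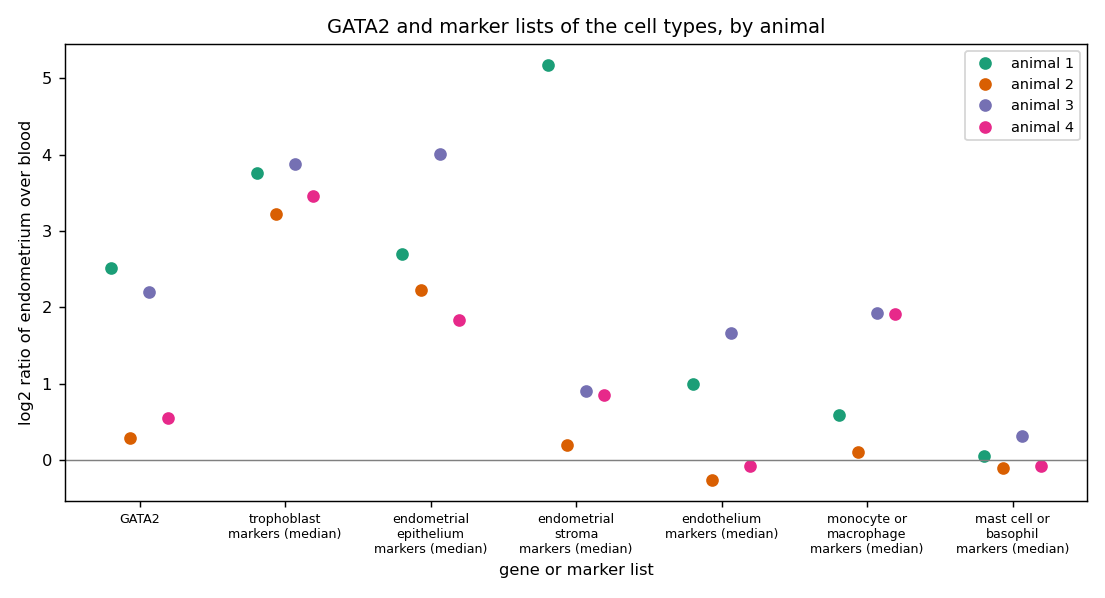
Log2 ratio of endometrium over blood (y axis) of GATA2 and the median over each marker list (x axis), with 1 point for each of the 4 animals. Animals 1 and 3 are the 2 highest for GATA2 and for each of the trophoblast, epithelial, stromal, endothelial and mast cell lists, and the median of 9 trophoblast markers lies between 3.22 and 3.87. For the monocyte or macrophage list animals 3 and 4 are the 2 highest. Animals 1 and 3 also had the widest ratios over all probes.

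The labelled cell type was read from 8 markers of monocytes and macrophages. CD14 itself was detected in all 8 channels of both tissues, with a mean ratio of -0.33 and an adjusted p by limma of 0.782. Its ratio was -2.08 in animal 1 and 0.11, 0.51 and 0.13 in animals 2 to 4. The summed signal of these markers was 8942 to 78844 in endometrium. In blood it was 103108 in animal 1 and 3151 to 4955 in animals 2 to 4, so the blood of animal 1 stood far above the others. The median ratio was 0.59, 0.10, 1.92 and 1.91 in animals 1 to 4. Of the 8 markers, 3 were higher in endometrium in all 4 animals, and ITGAM was higher in blood in all 4. By limma 5 passed an unadjusted p of 0.05 with a fold over 2 toward endometrium and 0 toward blood, against 5.27% and 5.11% of all probes. None passed with adjustment.

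GATA3 had the lowest ratio of the 10 genes. It was detected in all 8 blood channels and in 6 of 8 endometrial ones. Its blood level was 6.42, 9.71, 8.24 and 8.998 in animals 1 to 4, and its endometrial level was 6.40, 8.85, 6.24 and 9.01. Animal 1 was low in both tissues, animals 2 and 4 were high in both, and only animal 3 was high in blood and at background in endometrium. The ratio was -0.02, -0.86, -1.99 and 0.01, with a mean of -0.71 and a standard error of 0.40 (95% interval -1.72 to 0.29). The adjusted p by limma was 0.440. Without animal 3 the mean was -0.29. By the authors' values the mean was -1.28, and animal 3 alone had -4.24.

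T cell markers were read beside GATA3, since animal 1 was low for GATA3 in both tissues. The summed signal of 6 T cell markers was 958, 20683, 10749 and 11037 in endometrium of animals 1 to 4 and 523, 15179, 7525 and 12203 in blood. Animal 1 was thus far below the others in both tissues. The median T cell ratio was 0.47, 0.06, -0.57 and -0.14, so that in animal 3 the sum was higher in endometrium while the median ratio was below 0. The summed signal of natural killer cell markers was also lowest in animal 1, at 15499 in endometrium and 2405 in blood. None of the 6 T cell markers was higher in 1 tissue in all 4 animals, and all were detected in both tissues. The part of T cells or natural killer cells in the GATA3 signal was not tested.

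TFAP2A, the AP-2 alpha factor, was detected in all 16 channels. Its endometrial level was 6.59, 6.90, 7.12 and 7.26, and its blood level was 7.45, 7.12, 7.14 and 7.03. The tissues overlapped within a narrow range, and animal 1 had both the highest blood value and the lowest endometrial value. The mean ratio was -0.22 (95% interval -0.87 to 0.44), with an adjusted p by limma of 0.732. Without animal 1 the mean was -0.0016. By the authors' values the ratios were -1.86, -0.39, -0.17 and 0.52, with a mean of -0.48.

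TFAP2C, the AP-2 gamma factor, was detected in 4 of 8 endometrial channels, those of animals 1 and 3, and in 1 of 8 blood channels. Its endometrial level was 6.23, 6.11, 6.64 and 6.09, and its blood level was 6.12, 6.01, 6.04 and 6.04. Only the endometrium of animal 3 stood clear of the rest. The ratio was 0.10, 0.10, 0.60 and 0.05. All 4 were above 0, but in animals 2 and 4 no channel of either tissue was well above background, so that the sign there cannot be read. The ratio had a mean of 0.21 (95% interval -0.34 to 0.76) and an adjusted p by limma of 0.673, and without animal 3 the mean was 0.084. TFAP2C was the gene whose size changed most with the scale: by the authors' values, which have no offset, the ratios were 0.49, 1.29, 3.60 and 1.30 and the mean was 1.67, with an unadjusted p of 0.0300 and an adjusted p of 0.265 by limma. The blood values on that scale came from channels of which 7 of 8 were not well above background.

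MSX2 was detected in all 16 channels. Its blood level was 9.10, 9.39, 9.29 and 9.04 and its endometrial level was 8.43, 8.88, 8.67 and 9.26. Blood was above endometrium in animals 1, 2 and 3 and below it in animal 4. The ratio was -0.67, -0.51, -0.62 and 0.22, with a mean of -0.39 (95% interval -1.02 to 0.23) and an adjusted p by limma of 0.489. On MSX2 the technical replicates differed most, by a median of 0.31 in the ratio against 0.11 over all probes tested.

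CDX2 was in no channel of either tissue well above background. Its spots read between 18.5 and 62.25 in scanner units over local backgrounds of 12.5 to 48, and its level lay between 5.97 and 6.11 in all 8 animal and tissue pairs. No ratio can be read for it. Absence of the transcript cannot be inferred at this signal.

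**Figure D3:**
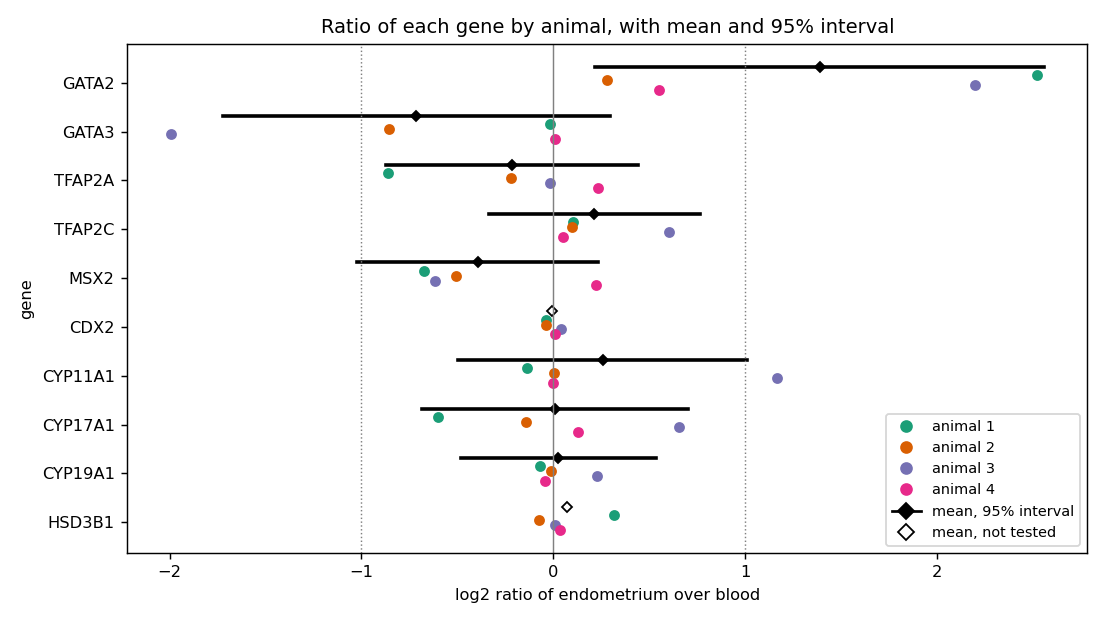
Log2 ratio of endometrium over blood (x axis) of each gene (y axis) in the 4 animals, with the mean and the 95% interval from limma; open diamonds are the means of the 2 genes not tested, and dotted lines mark a 2-fold difference. The interval of GATA2 lies above 0 before adjustment for the number of probes, and the other 7 intervals include 0.

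Among the enzymes, CYP11A1, which starts steroid synthesis, was detected in 7 of 8 endometrial and 4 of 8 blood channels. Its endometrial level was 6.10, 6.20, 7.29 and 6.24, and its blood level was 6.24, 6.20, 6.12 and 6.24. The endometrium of animal 3 was high and the other 7 values were alike on this scale, where the offset draws dim values together. The ratio was -0.13, 0.00, 1.17 and 0.00, with a mean of 0.26 (95% interval -0.49 to 1.01) and an adjusted p by limma of 0.717. Without animal 3 the mean was -0.04. By the authors' values the ratios were -1.43, 0.18, 3.47 and 0.11 and the mean was 0.58. On that scale the other 7 levels ran from 3.96 to 5.38.

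CYP17A1 was detected in all 16 channels. Its endometrial level was 7.20, 7.79, 8.19 and 7.76 and its blood level was 7.80, 7.93, 7.54 and 7.63, so that animals 1 and 3 differed in opposite directions. The ratio was -0.60, -0.14, 0.65 and 0.13, with a mean of 0.01 (95% interval -0.69 to 0.70) and an adjusted p by limma of 0.995.

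CYP19A1 was detected in 3 of 8 endometrial and 5 of 8 blood channels, at levels of 6.08 to 6.38 in endometrium and 6.15 to 6.21 in blood. Its mean ratio was 0.03 (95% interval -0.48 to 0.53), with an adjusted p by limma of 0.975. By the authors' values the ratios were -1.20, -0.29, 0.97 and -0.06 and the mean was -0.15, so that its sign differed between the scales. HSD3B1 was detected in the endometrium of animal 1, on both arrays, and in no other sample. There its level was 6.39, against 5.94 to 6.08 in the other 7 samples. Since blood was not well above background, a fold was also taken with blood raised to a floor. The floor was the lowest level of any detected probe in the channel, and arrays were normalized by quantiles of the mean of both colours. The endometrial mean of HSD3B1 was then 1.04-fold higher. This is not a lower bound, since only 2 of 8 endometrial channels were well above background. By the authors' values the ratio in animal 1 was 3.00. HSD3B1 and CDX2 failed the filter on dim probes and were not tested. CYP11A1, CYP17A1 and CYP19A1 had their highest ratio in animal 3 and HSD3B1 in animal 1.

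Of the 10 genes, 8 were tested. None had an adjusted p of at most 0.05 with a fold over 2, which 0.0661% of all 16654 probes reached. With the p left unadjusted, 1 of 8 passed 0.05 with that fold, GATA2, against 10.4% of all probes in either direction, 5.27% toward endometrium and 5.11% toward blood. A single gene of 8 is near that background. The ratio was above 0 in every animal for GATA2 and for TFAP2C, as it was for 10.2% of all probes. TFAP2C had no channel well above background in animals 2 and 4, and it passed the filter on dim probes through endometrium alone. None of the 8 was higher in blood in 4 of 4, which 14.7% of all probes were. In none of the 8 did the 4 levels of a tissue lie all above those of the other, as they did toward endometrium for 2.41% of all probes and toward blood for 3.03%. The ratios of 5 of 8 were above 0, and their median was 0.02 against -0.02 over all probes. Their median in animals 1 to 4 was -0.10, -0.08, 0.42 and 0.09, while that over all probes was -0.09, -0.03, -0.02 and -0.03. An exact permutation test within 4 animals cannot give less than 1 in 8, too large for the threshold of 0.05.

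**Figure D4:**
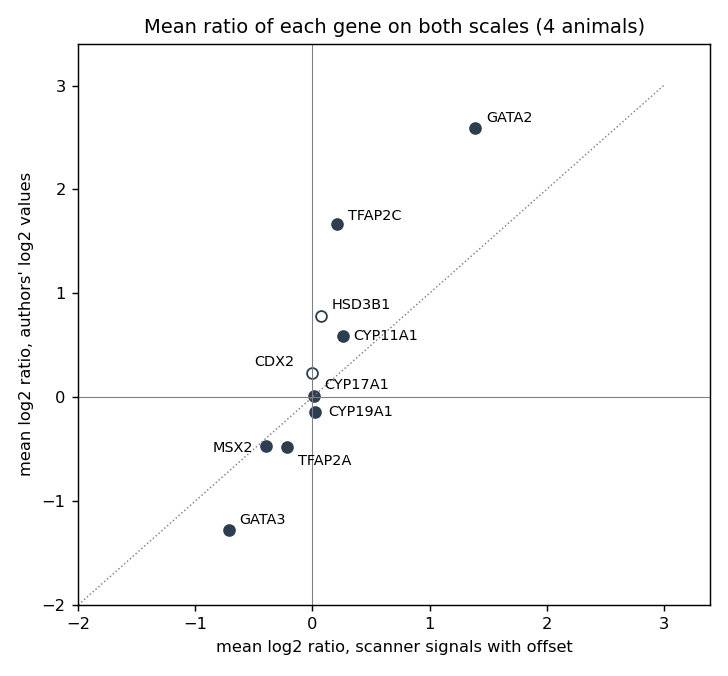
Mean log2 ratio of endometrium over blood over 4 animals from the scanner signals with an offset of 50 (x axis) and from the authors' log2 values (y axis), with 1 point for each gene, open for the 2 not tested; on the dotted line both are equal. GATA2 moves from 1.39 to 2.59 and TFAP2C from 0.21 to 1.67, and MSX2 and CYP17A1 lie near the line.

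Levels over the 8 animal and tissue pairs were compared with those of 11134 tested probes that carry a gene name. This is a description, and the 8 points share animals and arrays. The levels most like those of GATA2 were of LOC617692 (r = 0.981), CRABP1, a retinoic acid binding protein (0.977), and GJA1, a gap junction connexin (0.975). For TFAP2A they were of NEURL2 (0.944), HSPG2, which encodes perlecan (0.929), and the sulfotransferase SULT2B1 (0.927). For MSX2 they were of ZNF697 (0.985), TMEM82 (0.978) and ZNF414 (0.973), and for CYP17A1 of MAPK4 (0.995), ZDHHC22 (0.982) and LGI3 (0.972).

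A list of 38 further trophoblast transcription factors was set beside these genes. Of them 36 were on the array and 27 were tested. At the unadjusted threshold 5 passed toward endometrium and 1 toward blood, against 5.27% of all probes toward endometrium and 5.11% toward blood. None passed with adjustment, and the median ratio was 0.04. MSX1, a homeobox factor of uterus and embryo and the paralog of MSX2, had ratios of 2.39, 3.24, 3.86 and 1.36 and a mean of 2.71 (standard error 0.45, adjusted p 0.232 by limma). MSX1 was above blood in every animal, where MSX2 was below it in animals 1 to 3. HAND1, a factor of trophoblast giant cells, had ratios of 1.30, 1.05, 1.38 and 0.53 and a mean of 1.07. By the authors' values the mean was 3.65 for MSX1 and 2.99 for HAND1. YAP1, a coactivator of TEAD factors, was in no blood channel well above background, so that its mean ratio of 1.69 is drawn toward 0 by the offset. YAP1 had ratios of 2.30, 0.45, 3.04 and 0.98, with an adjusted p by limma of 0.262. With arrays normalized and blood raised as for HSD3B1, YAP1 was 3.50-fold higher in endometrium. That value is not a bound on the 3.23-fold of its mean ratio, since the normalization between arrays differed. By the authors' values its mean ratio was 5.55. KLF6 had a mean ratio of 1.36 and ID1 of 1.02, ID1 being above 0 in 3 of 4 animals. SP1, a general factor, was on the blood side at -1.39. GCM1, TEAD4, OVOL1, DLX4 and TFAP2B were, like CDX2, in no channel of either tissue well above background.

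The 44 further genes of steroid synthesis and conversion gave 27 tested probes. Of these 2 passed the unadjusted threshold toward endometrium and 1 toward blood, against 5.27% of all probes toward endometrium and 5.11% toward blood. None passed with adjustment, and the median ratio was 0.20. CYB5A, the cytochrome that aids CYP17A1, had ratios of 1.15, 0.65, 2.69 and 1.50 and a mean of 1.50 (standard error 0.38, adjusted p 0.262 by limma). The probe that serves AKR1C1 and AKR1C4, aldo-keto reductases that inactivate steroids, had a mean of 1.35, and of 2.40 by the authors' values. TSPO, a mitochondrial protein linked to cholesterol import, had -1.11 and lay on the blood side in 4 of 4 animals. STAR, the carrier that brings cholesterol to CYP11A1, was at 2.81 in animal 1 and between -0.37 and 0.37 in the others. CYP11A1, by contrast, had its high value in animal 3.

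Of 21 steroid receptors and regulators, 12 were tested, and 2 passed the unadjusted threshold in each direction, against 5.27% of all probes toward endometrium and 5.11% toward blood. None passed with adjustment, and the median ratio was -0.15. PGRMC1, a membrane protein linked to progesterone, had a mean ratio of 1.53 and NR1H3, the oxysterol receptor of macrophages, had 1.02, both above 0 in 4 of 4 animals. The coactivators NCOA3 and NCOA1 had -1.86 and -1.21 and were below 0 in all 4. NR5A1, the factor that drives steroidogenic genes in adrenal and gonad, was in no channel well above background.

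**Figure D5:**
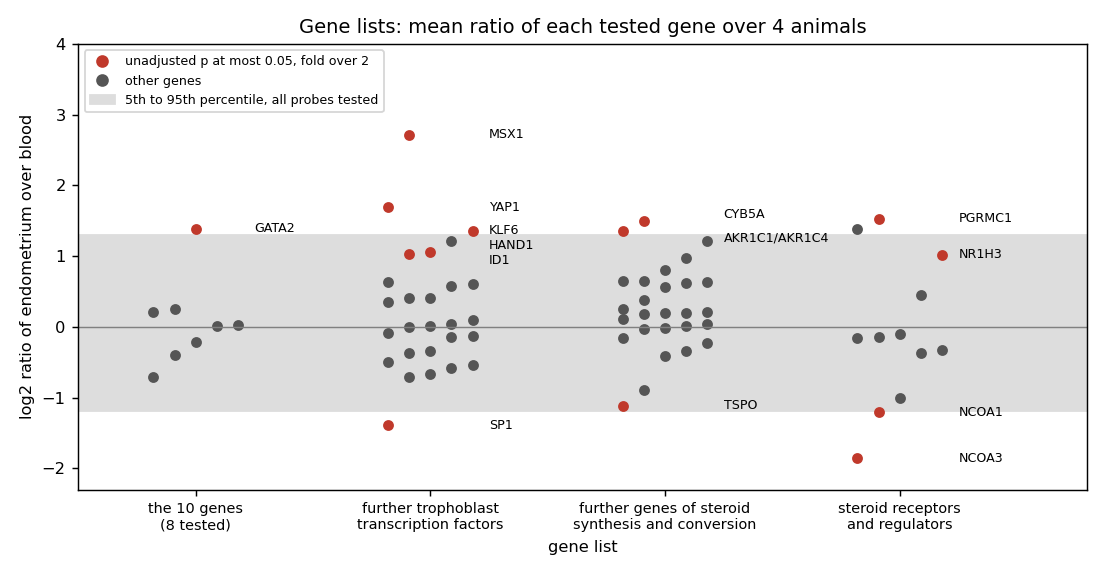
Mean log2 ratio of endometrium over blood over 4 animals (y axis) for each tested gene of the 10 and of the further lists (x axis); red points passed an unadjusted 0.05 and changed over 2-fold, and the grey band holds the 5th to 95th percentile of all probes tested. GATA2 is the 1 red point among the 8 tested genes, and MSX1 at 2.71 is the highest of the further factors.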

How the data were processed

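RNA of CD14+ cells of endometrium and blood of 4 cows was measured on 8 two-colour arrays. The authors deposited scanner files with the intensity of each spot (Feature Extraction, version 10.5.1.1 per the file headers and 9.5 per the labels), and a table of log2 values that the authors had normalized by lowess and quantiles. By rank, all 16 columns of that table equalled, at 100% of probes within 0.001, the labelled dye of the scanner file given for its animal's opposite technical replicate, and files were read so. In R 4.3.3 with limma 3.58.1, median intensities were corrected by normexp (offset 50), normalized by loess and quantiles, and averaged over spots and arrays. Each probe's log2 ratio within animals was tested against 0 with lmFit and eBayes, with Benjamini-Hochberg adjustment over the 16654 probes well above background in at least 4 of 8 channels of a tissue. Calls needed an adjusted p up to 0.05 with a fold over 2. All fits were tested on simulated data.

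The 10 genes and all lists were chosen with earlier results of these data known. By the rule, 6 were found by gene name or bracketed symbol, 3 by an older symbol with a RefSeq accession, and GATA2 by a bracketed symbol in the transcript name. Genes named from the lists are those past the unadjusted threshold, others being named after their values were seen. Results for 1 gene of the lists are not reported here. Tissues were paired by the animal number in the labels, and deviations of paired tissues correlated with r of 0.618, 0.364, 0.209 and 0.465. The number of arrays limits precision, and 65.2% to 82.9% of spots in a channel were well above background. Alternatives changed background, normalization, signal, filter, pairing, slides, file reading, test and animals.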

Additional observations from a re-analysis of the deposited data

Results flagged for a closer look

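In 30 sets of 4 animals (the ratio and both levels of each gene), 3 had a lowest or highest animal whose gap to the next exceeded the limit of Dixon's test at 95%, which chance passes in about 1 set in 20. They were the ratio of TFAP2C (0.909 of the range), the ratio of CYP11A1 (0.895) and the endometrial level of CYP11A1 (0.888). Animal 3 was the high one in each. Its dyes were not swapped, and it had the widest ratios over all probes, with a standard deviation of 1.49 against 0.712 to 1.096 in the others. The gaps were taken on the scale with the offset, which draws the ratios of dim samples toward 0. By the authors' values the ratios in animals 1 to 4 were 0.49, 1.29, 3.60 and 1.30 for TFAP2C. For CYP11A1 they were -1.43, 0.18, 3.47 and 0.11. The sets of CYP11A1 share the same endometrial values. The part of dye, spread or offset in these values was not tested.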

How the results depend on the processing

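No gene was called under 19 of the 20 settings; with p unadjusted and a fold over 2, 1 passed. The count of all probes called moved more: from 11 it went to 50 without background correction, 66 with an offset of 16, 5 with loess only, 171 with the scanner's processed signal, 224 with the authors' values, 5 without a filter and 44 with a stricter one. It was 20 and 5 with technical replicate 1 or 2 alone, 792 over 8 arrays with dye as a term and a random animal effect, 1729 at limma's unadjusted p, and 0 to 0 when each animal was left out. A plain t test over animals, modelled on the study's analysis of variance, gave 687 with unadjusted p and 0 after adjustment. That test used the ratios with the offset of 50, not the study's normalized values. Without the replicate block, which ignores the pairing, 4 probes were called and GATA2 had an unadjusted p of 0.114. With scanner files as attached 0 probes were called.

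GATA2 had a ratio above 0 in 15 of 16 settings, with adjusted p values from 0.0651 up. With files as attached it was -0.29, TFAP2A was 0.21 and MSX2 0.085, since that reading turns the sign of 3 animals. CYP17A1, near 0, was -0.025 with technical replicate 1 alone and ranged from -0.21 to 0.21 over the animals left out. CYP19A1 was -0.033 without background correction, -0.0094 with loess only, -0.17 with the processed signal and -0.15 by the authors' values, and ranged from -0.042 to 0.057 over the animals left out. CYP11A1 ranged from -0.044 to 0.39 over them. The count of genes past the unadjusted threshold, a summary added after seeing the data, was 2 by the processed signal and by the authors' values (GATA2 and TFAP2C), and 0 without the block, with files as attached, and without animal 1 or 3. The median ratio of the genes lay between -0.22 and 0.14. Every gene has 1 probe, so that averaging probes changed nothing.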
